A study of Mus musculus with 6 samples.

Results

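Mitosis and cytokinesis genes were followed in mammary tumors of mice, across spindle, kinetochore, checkpoint, kinesin, condensin and cytokinesis genes and without the Aurora kinase complex. The set named 45 genes by symbol, and a gene was measured where the array had a probe set annotated with that symbol alone, which gave 42 of 45 among 12393 genes in all. Kif15, Ccnb1 and Espl1 had no such probe set and are named only. Where a gene had several probe sets, the one with the highest mean over the 6 arrays stood for it.

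Tumor-bearing mice were given vehicle or a combination of VX680, miltefosine and WP1066 for 21 days, and total RNA of the mammary tumors was hybridised to Affymetrix mouse arrays, 3 per group. VX680 is an inhibitor of Aurora kinases, miltefosine is an alkylphosphocholine, and WP1066 is an inhibitor of JAK2 and STAT3. Both groups carried tumors. The strain, tumor model, age and doses are not stated in the sources used here. Nothing in the labels ties each sample to its own animal, and the spread behind the p-values may therefore be technical. The 3 drugs were given together, so the parts of the single agents cannot be told apart. In RNA of whole tumors, fewer dividing cells and less RNA per dividing cell cannot be told apart either.

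Dividing cells make the proteins of mitosis in a wave that starts late in DNA replication and peaks as the chromosomes condense. Cyclin-dependent kinase 1 with its cyclins opens mitosis, kinetochores tie the chromosomes to the spindle, and the spindle checkpoint holds back the anaphase-promoting complex until every chromosome is attached. Many of the genes share promoter elements, the CCAAT box bound by the factor NF-Y and the cell cycle genes homology region (CHR, here TTTGAA), bound by the MuvB complex, which represses the genes in resting cells and activates them with B-MYB and FOXM1 in dividing ones. In tumors their summed level is used as a measure of proliferation.

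The promoters of the set are shown as a description. The measured members shared their lowest array, and the part of promoter motifs in this was not tested. RefSeq promoter windows of 300 bases on GRCm38.p6, 250 before and 50 after the start, were found for 39 of the 45 genes, in 43 windows. Smc4, Foxm1, Ccna2, Dlgap5, Cdc25c and Kif20a had no entry. CCAAT stood on either strand in 31 of 43 windows (72.1%) and in 37.4% of all 32851 windows of this length. TTTGAA stood on either strand in 33 of 43 (76.7%) and in 17.9% of all windows. Both were present in 27 of 43 (62.8%) and in 6.95% of all windows, and in 0 of the 43 did a CCAAT share bases with a TTTGAA. A match of letters is a description and not a binding site.

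The stretches below run from 200 bases before to 30 after the start, 5′ to 3′ on the gene's strand, with each CCAAT and TTTGAA, or their reverse complements ATTGG and TTCAAA, in capitals. Top2a, Kif23 and Mki67 are the measured members with the smallest unadjusted limma p among those with both motifs in the stretch, Bub1 is that with CCAAT alone and Melk that with neither. Top2a lies at chr11:99024160-99024389 on the minus strand, Kif23 at chr9:61946770-61946999 on the minus strand, Mki67 at chr7:135716350-135716579 on the minus strand, Bub1 at chr2:127831830-127832059 on the minus strand and Melk at chr4:44300717-44300946 on the plus strand.
Top2a: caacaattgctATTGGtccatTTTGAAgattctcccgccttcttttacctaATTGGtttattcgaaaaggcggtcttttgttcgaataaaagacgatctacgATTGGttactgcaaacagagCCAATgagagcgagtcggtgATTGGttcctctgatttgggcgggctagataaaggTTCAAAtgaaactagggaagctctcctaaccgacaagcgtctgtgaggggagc
Kif23: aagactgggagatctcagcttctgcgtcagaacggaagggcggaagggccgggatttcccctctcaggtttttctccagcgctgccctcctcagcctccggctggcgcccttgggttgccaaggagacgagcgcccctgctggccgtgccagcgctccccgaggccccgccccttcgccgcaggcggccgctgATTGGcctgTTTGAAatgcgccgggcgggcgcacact
Mki67: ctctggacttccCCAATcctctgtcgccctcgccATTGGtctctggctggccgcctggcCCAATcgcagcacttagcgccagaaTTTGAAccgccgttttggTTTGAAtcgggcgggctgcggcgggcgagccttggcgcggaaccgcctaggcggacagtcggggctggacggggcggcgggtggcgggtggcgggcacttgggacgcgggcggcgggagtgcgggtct
Bub1: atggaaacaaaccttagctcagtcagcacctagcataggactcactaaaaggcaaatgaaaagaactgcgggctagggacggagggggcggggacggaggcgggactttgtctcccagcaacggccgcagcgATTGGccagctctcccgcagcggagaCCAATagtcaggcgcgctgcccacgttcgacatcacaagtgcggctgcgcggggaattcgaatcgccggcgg
Melk: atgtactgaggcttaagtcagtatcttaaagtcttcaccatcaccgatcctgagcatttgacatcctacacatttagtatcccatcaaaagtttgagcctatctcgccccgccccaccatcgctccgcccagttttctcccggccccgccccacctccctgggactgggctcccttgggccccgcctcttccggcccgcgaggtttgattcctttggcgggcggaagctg

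The stretch of Top2a held 5 CCAAT boxes and 2 TTTGAA, that of Mki67 held 3 and 2, and that of Kif23 held 1 of each, close together at the start. The 23 measured members with both motifs in their 300 bases had a median log2 difference, drug minus vehicle, of -0.19 (range -0.30 to -0.063), and the 6 with neither, Mad2l1, Melk, Ncaph, Nuf2, Nusap1 and Pttg1, had a median of -0.16 (range -0.23 to -0.059). For the 3 with CCAAT alone it was -0.22 and for the 4 with TTTGAA alone -0.16, with no test between the classes.

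The comparison asked whether transcripts of mitosis differed between tumors of mice given the combination and of mice given vehicle. All 42 measured members had a lower mean in the drug group, by small amounts that ran from -0.019 (Foxm1) to -0.33 (Kif2c) on the log2 scale, with a median of -0.17. Over all 12393 genes 52.1% had a lower mean and the median difference was -0.0054. By limma with Benjamini-Hochberg adjustment over all genes, 0 of 42 members passed an adjusted p of 0.05, against 0% of all genes, and the members' adjusted p ran from 0.356 to 0.958. At an unadjusted p under 0.05, 18 of 42 were lower and 0 higher, where 4.91% of all genes were lower. All 3 drug arrays lay below all 3 vehicle arrays for 23 of 42 members, against 9.37% of all genes, and for 0 members did all drug arrays lie above. The members moved together, with a median pairwise correlation of 0.82 over the 6 arrays, so these counts are not 42 independent results. With 3 arrays in each group the smallest two-sided p of the exact permutation test is 0.1, so it was not used for calls. The unadjusted count of 18 became 9 when vehicle replicate 1 was dropped, 11 when vehicle replicate 3 was and 8 when drug replicate 3 was. In these settings 3.78%, 4.59% and 4.33% of all genes were lower at that p. Dropping drug replicate 3 left a median of -0.11.

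Every measured member had a mean over the 6 arrays of at least 6.72 on the log2 scale, while the lowest value of any probe set in the table was 1.88, so no member sat at the bottom of the scale. The median SE of a difference was 0.079 for the members and 0.078 for all genes. The spread among drug arrays was wider than among vehicle arrays for 32 of 42 members, with median SDs of 0.11 and 0.054, while over all genes the medians were 0.091 and 0.087.

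Drug replicate 3 was the lowest of the 6 arrays for 42 of 42 members, against 21.3% of all genes. Vehicle arrays were highest for 39 of 42 members, vehicle replicate 1 for 25, replicate 3 for 11 and replicate 2 for 3, against 51.7% of all genes with a vehicle array highest. The exceptions were Mad2l1, highest in drug replicate 1, and Foxm1 and Pttg1, highest in drug replicate 2. Relative to each gene's mean over the 6 arrays, the members' median level was 0.14, 0.045 and 0.077 in vehicle and -0.034, -0.015 and -0.22 in the drug group. Over all genes the same medians were between -0.0048 and 0.0087. Drug replicate 3 was thus the low array, and drug replicates 1 and 2 had medians between it and vehicle.

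Compared array by array, drug replicate 3 was below each of the 3 vehicle arrays for 42 of 42 members, with median differences of -0.35, -0.25 and -0.30 against vehicle replicates 1, 2 and 3. Drug replicate 1 was below them for 39, 32 and 36 members (medians -0.14, -0.053 and -0.10), and drug replicate 2 for 38, 36 and 33 (medians -0.16, -0.062 and -0.11). Between 49.2% and 53.5% of all genes were lower in the drug array of such a pair. These 9 pairs share arrays and are not independent. With drug replicate 3 left out, 38 of 42 members still had a lower mean in the drug group, against 51.9% of all genes, and the 4 others were Mad2l1, Kif22, Cdca3 and Foxm1. Without that array the difference of 21 further members shrank by over 1.5 times, and their values without it are given with each role. Dropping vehicle replicate 1 moved 8 members that far, vehicle replicate 2 moved 2, drug replicates 1 and 2 moved 5 each, and vehicle replicate 3 moved 0.

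**Figure D1:**
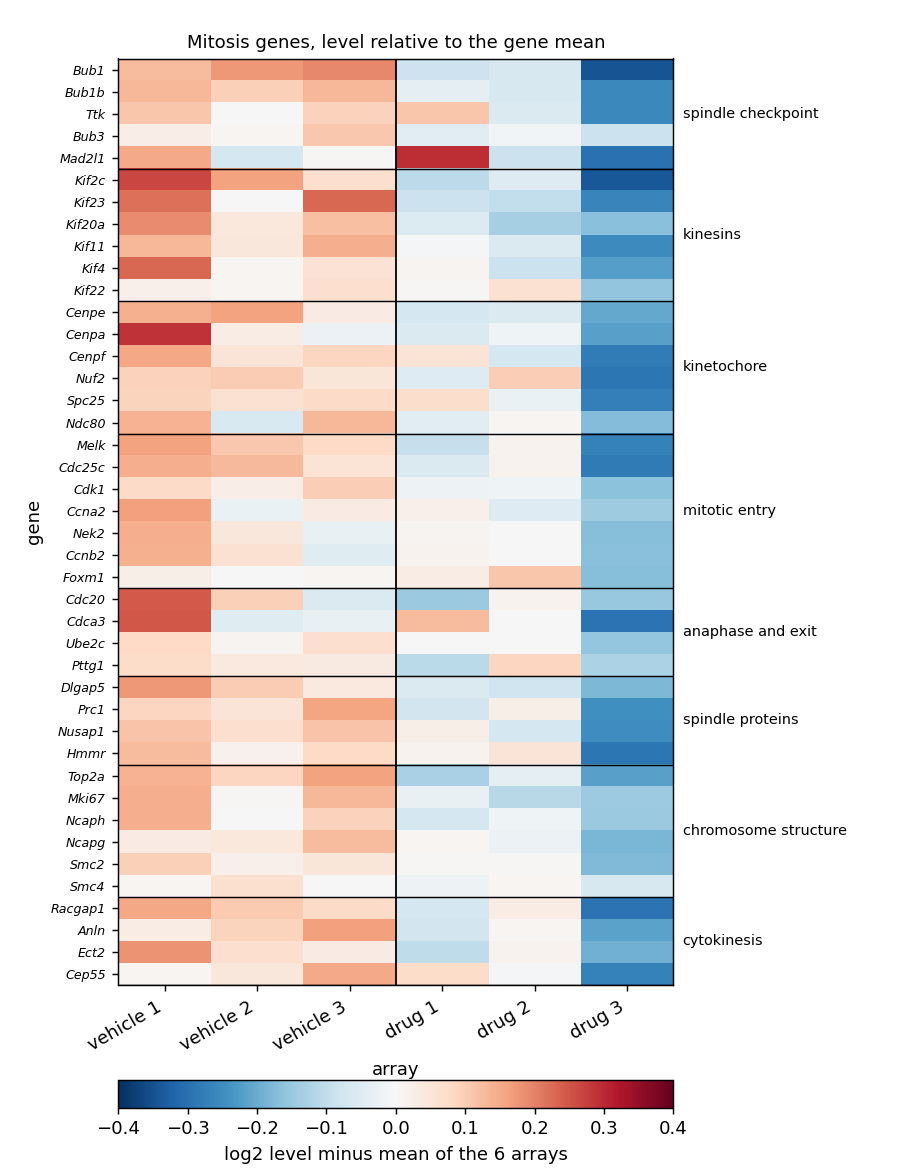
Level of each of the 42 measured mitosis genes (rows, grouped by role) on each array (columns, 3 vehicle and 3 drug), as the log2 value minus that gene's mean over the 6 arrays. The column of drug replicate 3 is blue in every row, since it was the lowest array for 42 of 42 genes, while the medians of drug replicates 1 and 2 were -0.034 and -0.015.

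Chromosome structure genes included the best-known markers of dividing cells. For 5 of 6 all drug arrays lay below the vehicle arrays, against 9.37% of all genes. Top2a, the topoisomerase that untangles sister chromatids, had log2 levels of 10.49, 10.44 and 10.51 in vehicle and 10.22, 10.32 and 10.14 in the drug group. All drug values were below all vehicle values, and the difference was -0.26 ± 0.064 (SE, n = 3 per group), a mean 16.2% lower, with the smallest limma adjusted p of the set (adjusted p = 0.356). Mki67, the nuclear antigen Ki-67 that coats mitotic chromosomes, stood at 11.01, 10.87 and 11.00 in vehicle and 10.84, 10.76 and 10.72 in the drug group. Its groups were 0.034 apart, between vehicle replicate 2 and drug replicate 1, and the difference was -0.19 ± 0.064, or 12.4% lower.

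Condensin genes encode ring complexes that compact the chromosomes. Ncaph and Ncapg, subunits of condensin I, had differences of -0.16 ± 0.064 and -0.13 ± 0.069, and Smc2, a core ATPase of both condensins, of -0.11 ± 0.068, each without overlap between the groups. Smc4, the partner of Smc2, had levels of 10.58, 10.64 and 10.58 in vehicle and 10.55, 10.58 and 10.51 in the drug group. Drug replicate 2 lay within the vehicle values, and the difference of -0.051 had a 95% interval of -0.17 to 0.071. Dropping drug replicate 3 left differences of -0.074 for Ncapg, -0.050 for Smc2 and -0.032 for Smc4, and dropping vehicle replicate 2 one of -0.031 for Smc4. The group's median was -0.15, and -0.098 without drug replicate 3. At an unadjusted limma p under 0.05, 3 of 6 were lower, against 4.91% of all genes.

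Spindle checkpoint genes had differences from -0.059 to -0.33, and 3 of 5 had all drug arrays below vehicle, against 9.37% of all genes. Bub1, a checkpoint kinase at the kinetochore, had levels of 9.70, 9.74 and 9.76 in vehicle and 9.49, 9.51 and 9.22 in the drug group, with 0.19 between the groups. The difference of -0.33 ± 0.086 (limma adjusted p = 0.369) was a mean 20.4% lower. Bub1b, which encodes the checkpoint protein BubR1, stood at 9.50, 9.47 and 9.50 in vehicle and 9.33, 9.30 and 9.11 in the drug group, also without overlap, with a difference of -0.24 ± 0.071. Bub3, their binding partner, differed by -0.095 without overlap, and the kinase Ttk (MPS1) by -0.14 with overlap. The difference of Ttk was -0.043 when drug replicate 3 was dropped and -0.23 when drug replicate 1 was.

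Mad2l1, which encodes the inhibitor MAD2 of the anaphase-promoting complex, varied more within the drug group than any other member, with levels of 10.17, 9.95 and 10.02 in vehicle and 10.32, 9.93 and 9.72 in the drug group. Its highest and its lowest array were both drug arrays, and the difference of -0.059 had a 95% interval of -0.43 to 0.31. Dropping vehicle replicates 1 or 2 or drug replicates 1, 2 or 3 took the difference to 0.0026, -0.11, -0.22, -0.031 and 0.076. The 5 checkpoint genes had a median of -0.14, which became -0.076 without drug replicate 3, -0.23 without drug replicate 1, -0.23 without the array richest in muscle markers in each group (vehicle replicate 3, drug replicate 1), and -0.073 when the muscle marker score was a covariate.

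Kinesins, the motors that build the spindle and separate it, had a median of -0.22 over 6 genes, the lowest of the 8 roles with no test between roles, and it was -0.18 without drug replicate 3. Kif20a, a motor of the central spindle, had levels of 9.23, 9.09 and 9.16 in vehicle and 8.99, 8.91 and 8.88 in the drug group. The groups were apart, and the 3 drug arrays lay close to one another, with a difference of -0.23 ± 0.062 (limma adjusted p = 0.369). Kif2c, which depolymerises microtubules to correct faulty attachments, stood at 8.84, 8.74 and 8.64 in vehicle and 8.47, 8.52 and 8.24 in the drug group. This was the lowest difference of the set, -0.33 ± 0.094, a mean 20.5% lower. The other probe sets of Kif2c, at lower means, gave -0.23, -0.13 and -0.027, the last with overlap.

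Kif23, the motor of the centralspindlin complex, differed by -0.30 ± 0.087 without overlap. Kif11, which pushes the spindle poles apart, differed by -0.21 ± 0.079 without overlap. The other probe sets of Kif11, at means of 7.93 and 6.74, gave -0.081 and -0.039, both with overlap. Kif4, a chromosome-bound motor, differed by -0.20 with drug replicate 1 just above the lowest vehicle array. Kif22, which moves chromosome arms, had levels of 10.37, 10.36 and 10.42 in vehicle and 10.35, 10.41 and 10.19 in the drug group, where drug replicate 3 was the lowest and drug replicate 1 was also just below the vehicle arrays. Its difference was -0.063 with a 95% interval of -0.23 to 0.11, but its other probe sets gave -0.25 and -0.28. With drug replicate 3 dropped, the difference was -0.14 for Kif11 and 0.00018 for Kif22, and with drug replicate 2 dropped it was -0.11 for Kif22.

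Kinetochore genes had differences close to one another, from -0.14 to -0.22. For 1 of 6 all drug arrays lay below the vehicle arrays, against 9.37% of all genes. That was Cenpe, a kinesin-like motor that moves chromosomes to the spindle equator, with levels of 7.38, 7.40 and 7.27 in vehicle and 7.16, 7.18 and 7.03 in the drug group and a difference of -0.22 ± 0.066 (limma adjusted p = 0.394). Cenpf, a large protein of the outer kinetochore, stood at 9.06, 8.95 and 8.99 in vehicle and 8.96, 8.83 and 8.62 in the drug group. Drug replicate 1 was just above vehicle replicate 2, and the difference was -0.20 ± 0.093. Nuf2, a subunit of the NDC80 complex that grips microtubules, had levels of 7.41, 7.42 and 7.37 in vehicle and 7.27, 7.42 and 7.03 in the drug group, with drug replicate 2 within the vehicle values.

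The other subunits of that complex, Ndc80 and Spc25, differed by -0.14 and -0.15, and Nuf2 by -0.16, each with overlap. Cenpa, the histone H3 variant of centromeres, differed by -0.20 with vehicle replicate 1 the highest array. Dropping drug replicate 3 left differences of -0.10 for Cenpf, -0.057 for Nuf2, -0.052 for Spc25 and -0.086 for Ndc80. The difference of Nuf2 was -0.25 when drug replicate 2 was dropped, and that of Cenpa -0.10 when vehicle replicate 1 was. The group's median was -0.18, and -0.095 without drug replicate 3.

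Of 7 genes of mitotic entry 3 had all drug arrays below vehicle, against 9.37% of all genes, and the median was -0.12. Left out one at a time, drug replicate 3 took it to -0.073 and vehicle replicate 1 to -0.062, and it was -0.18 without both muscle-rich arrays. Melk, a kinase of proliferating and progenitor cells, had levels of 8.91, 8.86 and 8.83 in vehicle and 8.66, 8.76 and 8.48 in the drug group, without overlap, and a difference of -0.23 ± 0.082. Cdc25c, the phosphatase that activates Cdk1, stood at 7.49, 7.47 and 7.40 in vehicle and 7.29, 7.36 and 7.06 in the drug group, again without overlap, with a difference of -0.22 ± 0.087. Cdk1, the kinase that drives entry into mitosis, had levels of 10.20, 10.15 and 10.22 in vehicle and 10.11, 10.11 and 9.96 in the drug group. Its groups were 0.044 apart, and it differed by -0.13 ± 0.062. With drug replicate 3 dropped, the difference was -0.13 for Cdc25c and -0.086 for Cdk1.

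The cyclins of Cdk1, Ccna2 and Ccnb2, differed by -0.12 and -0.10, and the centrosomal kinase Nek2 by -0.11, each with overlap. These differences were -0.073, -0.045 and -0.047 when drug replicate 3 was dropped, and -0.062, -0.057 and -0.060 when vehicle replicate 1 was. Foxm1, the transcription factor that activates many of the genes described here, had the smallest difference of all, with levels of 6.84, 6.82 and 6.83 in vehicle and 6.85, 6.93 and 6.65 in the drug group. Drug replicates 1 and 2 were above the 3 vehicle arrays and drug replicate 3 below them. The difference was -0.019 with a 95% interval of -0.21 to 0.17. It was -0.012 with vehicle replicate 1 dropped and -0.039, -0.079 and 0.061 with drug replicates 1, 2 and 3 dropped. Its 3 other probe sets gave -0.10, -0.092 and -0.046, the last at a mean of 2.27, near the bottom of the scale.

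**Figure D2:**
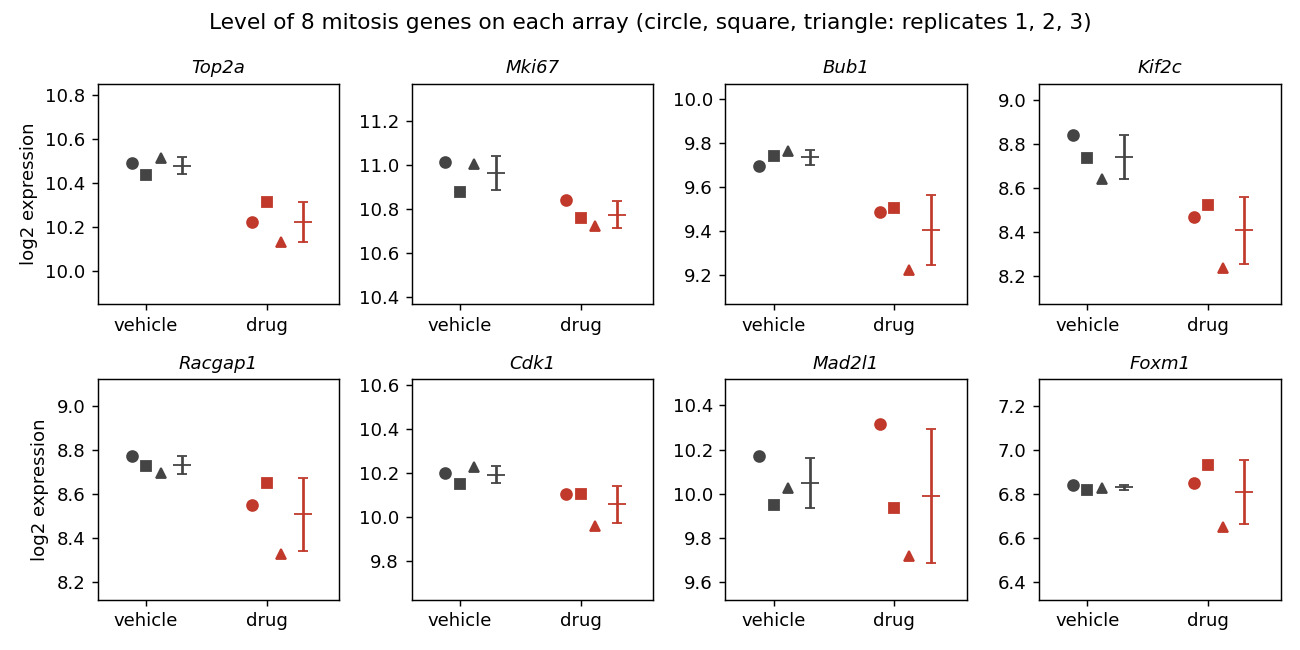
Log2 expression of 8 mitosis genes in the 3 vehicle (grey) and 3 drug (red) arrays, with circle, square and triangle for replicates 1, 2 and 3 and the bar for the group mean with its SD; every panel spans 1 log2 unit. Top2a, Mki67, Bub1, Kif2c, Racgap1 and Cdk1 have drug values below all vehicle values, whereas Mad2l1 and Foxm1 overlap and have their highest value in a drug array.

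Genes of anaphase, mitotic exit and the protein destruction that drives them numbered 4. In 1 of 4 all drug arrays lay below vehicle, against 9.37% of all genes. At an unadjusted limma p under 0.05, 0 of 4 were lower, against 4.91% of all genes. Cdc20, the activator of the anaphase-promoting complex, had levels of 11.55, 11.40 and 11.25 in vehicle and 11.16, 11.32 and 11.15 in the drug group. Drug replicate 2 was above the lowest vehicle array, and the difference was -0.19 ± 0.093. Its 2 other probe sets gave -0.20 and -0.28, both without overlap. Ube2c, the ubiquitin-conjugating enzyme of that complex, stood at 11.84, 11.77 and 11.82 in vehicle and 11.76, 11.75 and 11.60 in the drug group, 0.0091 apart, and differed by -0.11 ± 0.063. The difference of Cdc20 was -0.11 when vehicle replicate 1 was dropped, and that of Ube2c -0.054 when drug replicate 3 was.

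Pttg1, which encodes securin, the inhibitor of separase, differed by -0.099 with overlap, -0.060 with drug replicate 3 dropped and -0.17 with drug replicate 2 dropped. Cdca3, a trigger of mitotic entry that works through a ubiquitin ligase, had levels of 10.05, 9.75 and 9.77 in vehicle and 9.93, 9.80 and 9.51 in the drug group, with drug replicates 1 and 2 inside the vehicle range. Its difference of -0.11 had a 95% interval of -0.43 to 0.21, and it was -0.018, -0.21 and 0.0054 with vehicle replicate 1, drug replicate 1 and drug replicate 3 dropped. The median of the 4 genes was -0.11. It was -0.057 if drug replicate 3 was dropped and -0.18 if both muscle-rich arrays were.

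Spindle proteins that bind microtubules had 3 of 4 with all drug arrays below vehicle, against 9.37% of all genes. Their median over 4 genes was -0.20, and -0.12 without drug replicate 3. Dlgap5, a stabiliser of kinetochore fibres, had levels of 7.46, 7.39 and 7.33 in vehicle and 7.23, 7.21 and 7.11 in the drug group, without overlap, and a difference of -0.21 ± 0.062 (limma adjusted p = 0.394). Nusap1, which bundles microtubules near chromosomes, stood at 9.40, 9.35 and 9.40 in vehicle and 9.31, 9.21 and 9.04 in the drug group, without overlap, and differed by -0.20 ± 0.079. Prc1, the crosslinker of the central spindle, differed by -0.20 without overlap. Hmmr, a microtubule-associated hyaluronan receptor, had levels of 9.57, 9.46 and 9.52 in vehicle and 9.46, 9.50 and 9.16 in the drug group, where drug replicate 2 was above vehicle replicate 2, and differed by -0.15. Dropping drug replicate 3 left differences of -0.12 for Nusap1, -0.12 for Prc1 and -0.042 for Hmmr.

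Cytokinesis genes, which cut the daughter cells apart, had a median of -0.19 over 4 genes and -0.13 without drug replicate 3. Ect2, the exchange factor that switches on RhoA at the cleavage furrow, had levels of 8.79, 8.67 and 8.64 in vehicle and 8.51, 8.62 and 8.42 in the drug group, 0.018 apart. Anln, the scaffold of the contractile ring, stood at 9.22, 9.29 and 9.36 in vehicle and 9.12, 9.20 and 8.98 in the drug group, 0.021 apart. The differences were -0.19 ± 0.074 for Ect2 and -0.19 ± 0.075 for Anln. Racgap1, the partner of Kif23 in centralspindlin, had levels of 8.77, 8.73 and 8.70 in vehicle and 8.55, 8.65 and 8.33 in the drug group, and differed by -0.22 ± 0.090 without overlap. Cep55, which recruits the machinery of abscission, had levels of 9.21, 9.25 and 9.35 in vehicle and 9.28, 9.20 and 8.93 in the drug group, where drug replicate 1 exceeded vehicle replicates 1 and 2, and it differed by -0.13. With drug replicate 3 dropped, the difference was -0.13 for Racgap1 and -0.034 for Cep55, and with drug replicate 1 dropped it was -0.20 for Cep55.

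**Figure D3:**
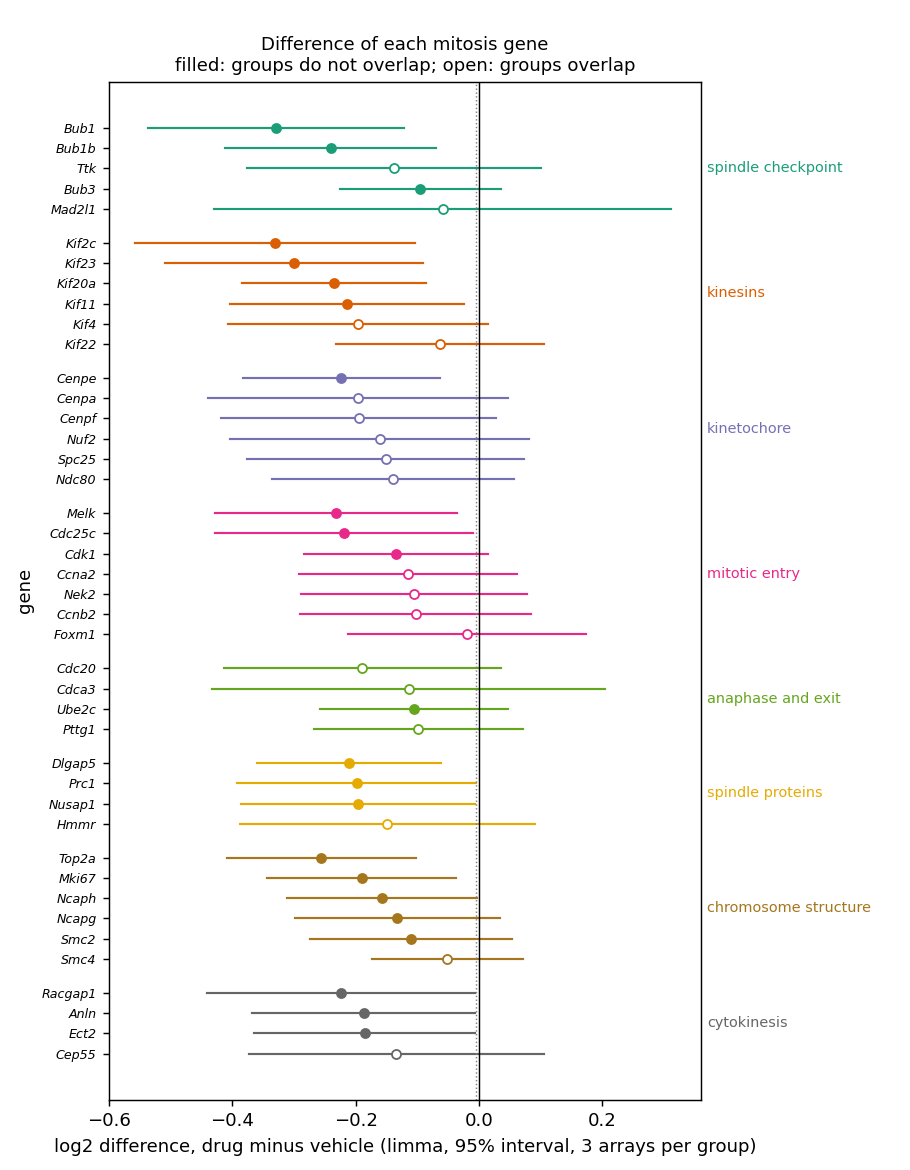
Log2 difference (drug minus vehicle) of each of the 42 measured mitosis genes with its 95% interval from limma, grouped by role; filled points have all 3 drug arrays below all 3 vehicle arrays, open points overlap, and the dotted line is the median of all genes. All 42 points lie below 0, 23 are filled, and the intervals are unadjusted.

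Other probe sets of the members did not enter the member counts and medians above, though some were given beside their gene. They read the same genes on the same arrays and are not an independent result. The 42 genes had 79 probe sets, and of the 37 not used, 34 had a lower mean in the drug group, against 52% of all 20380 probe sets with 1 symbol. The 3 with a higher mean belonged to Bub1, Bub3 and Cdca3 and had means of 4.60, 4.31 and 2.80, under the median of every array. The unused probe sets of Kif23 gave -0.70 at a mean of 4.52 and -0.0065 at a mean of 3.24. One of Bub3, at 7.26, gave -0.28. For 7 of the 42 members, among them Kif2c, Cdc20 and Ncaph, the probe set used has a name ending in _x_at or _s_at. The manufacturer gives these endings to probe sets that may also match transcripts of other genes.

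Mitosis genes outside the set were also mostly lower. Of 49 other measured mitosis genes 45 had a lower mean, against 52.1% of all genes, with a median of -0.12. Without drug replicate 3, 39 had a lower mean, against 51.9% of all genes, and the median was -0.057. By limma 0 passed, against 0% of all genes. At an unadjusted p under 0.05, 8 were lower and 1 higher, against 4.91% and 5.37% of all genes, and 14 had all drug arrays below vehicle, against 9.37%. Spag5, a spindle pole protein, differed by -0.22 ± 0.056, and Pimreg, a mitotic regulator, by -0.44 ± 0.16 (SE, n = 3 per group), the latter -0.26 with drug replicate 1 dropped. Wee1, the kinase that holds Cdk1 inactive, was the 1 gene of this list with all drug arrays above the vehicle arrays, as were 7.73% of all genes, at 9.11, 9.26 and 9.19 in vehicle and 9.50, 9.41 and 9.30 in the drug group, a difference of 0.22 ± 0.073.

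Cohesin and its regulators, which hold sister chromatids together and are also used outside mitosis, had a median of -0.035 over 9 genes. Of this list 0 had groups apart, where 9.37% of all genes had all drug arrays below vehicle and 7.73% above. Its first members by p, Rad21, Nipbl and Esco1, differed by -0.10, -0.069 and 0.055. The differences of Rad21 and Nipbl were -0.033 and -0.035 with drug replicate 1 dropped, that of Nipbl was -0.030 with vehicle replicate 3 dropped, and that of Esco1 was 0.087 with vehicle replicate 1 and 0.037 with drug replicate 3 dropped. Among 18 genes of the DREAM and E2F regulators of cell cycle transcription the median was -0.039, with 15 lower, against 52.1% of all genes. E2f8, a repressor of the E2F family, differed by -0.25 ± 0.061, Rbl1, the pocket protein p107, by -0.24 ± 0.071 and Rbbp4, a core subunit of MuvB, by -0.13 ± 0.053, each with all drug arrays below vehicle, while the pocket protein gene Rbl2 (p130), named after its values were seen, differed by 0.098 with all drug arrays above. By limma 0 genes of either list passed; at an unadjusted p under 0.05 there were 0 in cohesin and 3 lower among the regulators, against 4.91% of all genes. Without drug replicate 3 the medians were -0.0067 and -0.023. The cohesin median was also -0.018 without vehicle replicate 2, -0.011 without vehicle replicate 3, 0.0014 without both muscle-rich arrays and -0.018 when muscle markers were a covariate.

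DNA replication genes had a median of -0.13, with 32 of 33 lower, against 52.1% of all genes, and 13 with all drug arrays below vehicle, against 9.37%. The number lower was 25 with drug replicate 3 dropped, against 51.9% of all genes. With muscle markers as a covariate it was 26, against 52.3% of all genes, and the median was -0.082. Aurora kinases and their partners, 6 of 6 lower against 52.1% of all genes, had a median of -0.18, and -0.098 without drug replicate 3. Of 15 G1 cyclins, kinases and inhibitors 10 were lower, where 52.1% of all genes were. Cdkn1a, the inhibitor p21, differed by 0.39 ± 0.13 and Ccnd1, cyclin D1, by 0.31 ± 0.12, both with all drug arrays above vehicle. The difference of Ccnd1 was 0.19 with vehicle replicate 2 dropped. The G1 median was -0.093, -0.033 without drug replicate 1, -0.055 without drug replicate 3 and -0.049 without both muscle-rich arrays. By limma 0 genes of these lists passed over all genes, while at an unadjusted p under 0.05 there were 9 lower in the replication list, 1 lower and 2 higher in the G1 list and 1 lower in the Aurora list, where 4.91% of all genes were lower and 5.37% higher. The difference between any of these lists and the mitosis genes was not tested.

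**Figure D4:**
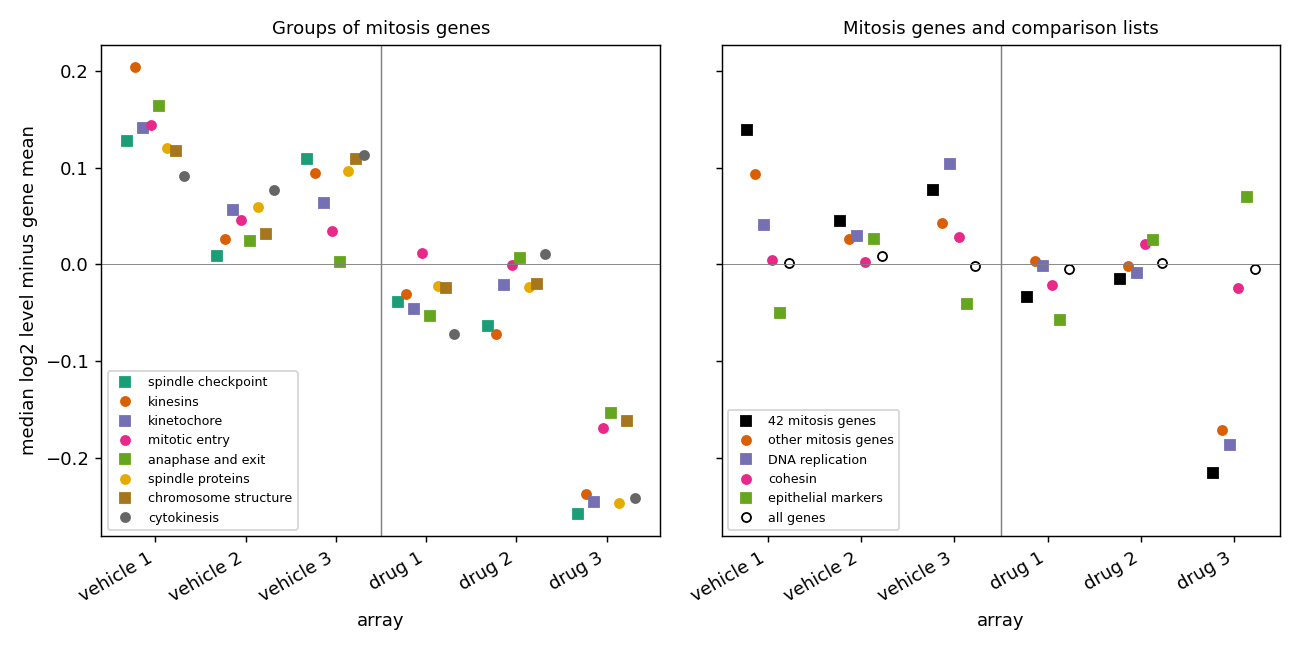
Median log2 level relative to each gene's mean over the 6 arrays, per array, for the 8 roles of mitosis genes (left) and for the 42 mitosis genes beside comparison lists and all genes (right); points of an array are spread sideways for legibility. Every role has its lowest value in drug replicate 3, other mitosis and DNA replication genes do too, and the median of all genes stays close to 0 on each array.

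As a check of the tissue label, all 16 epithelial markers of mammary tumors had means of at least 5 on the log2 scale, with Krt8 at 12.48 ± 0.075 in vehicle and 12.57 ± 0.11 in the drug group (SD, n = 3 each). Their summed linear level was 30280 to 33160 in vehicle and 33540 to 36420 in the drug group, without overlap and with drug replicate 3 the highest array. Of the 16 markers 10 had a higher and 6 a lower mean in the drug group, with differences from -0.30 to 0.62. Macrophage markers, with 10 measured, summed to 12020 to 15100 and 11200 to 13640, lowest in drug replicate 3. Of these 10 markers 6 had a lower and 4 a higher mean, with differences from -0.38 to 0.22, where 52.1% of all genes were lower. T and NK cell markers, 11 measured and 8 of them with means under 5, summed to 471.1 to 479.8 in vehicle and 369.7 to 385.4 in the drug group, without overlap. Of these 11 markers 9 had a lower and 2 a higher mean, with differences from -0.58 to 0.10. For 3 of 11 all drug arrays lay below vehicle, against 9.37% of all genes. B and plasma cell markers, 7 measured and 4 of them with means under 5, summed to 704.1 to 1091 and 334 to 479.7, also without overlap. Differences of these 7 ran from -1.93 to 0.0042. The part of the epithelial and immune markers in the differences of the mitosis genes was not tested.

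Skeletal muscle markers varied widely between arrays. The 18 measured summed to 2476 to 29030 in vehicle and 791 to 17050 in the drug group, highest in vehicle replicate 3 and lowest in drug replicate 3. With a muscle score as covariate the mitosis median was -0.13 and 40 of 42 members were lower, against 52.3% of all genes. The most muscle-rich arrays of their groups were vehicle replicate 3 and drug replicate 1. With both left out the mitosis median was -0.21 and 42 of 42 members were lower, against 52.2% of all genes. Fibroblast, endothelial and adipocyte markers overlapped between the groups in summed level, from 11320 to 21890, 870.3 to 1067 and 1333 to 11510 in vehicle and from 17260 to 19470, 912.6 to 1036 and 1817 to 6587 in the drug group.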

How the data were processed

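Total RNA was labelled with biotin and hybridised to 1 Affymetrix array per sample, 3 vehicle and 3 drug. The authors' deposited values are log2 expression for 22690 probe sets, made with Affymetrix Expression Console per the submitters' processing notes. Its version, the summarisation method and the normalization are not stated in the sources used here. That the scale is log2 was inferred from values of 1.88 to 14.14. Array medians were 6.70 to 6.73, and no further normalization was applied. If the arrays were equalised, a shift common to most genes would not show. The number of arrays limits the precision.

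Gene symbols came from GEO's annotation of the platform. Of the probe sets 20380 had 1 symbol and were used, 691 had several, 1555 none and 64 were controls. Symbols were checked through Entrez identifiers (99.9% matched, 0 changed). Groups were compared with limma 3.58.1 in R 4.3.3 (lmFit, eBayes, two-sided, Benjamini-Hochberg over 12393 genes, threshold 0.05), with no covariate or level filter. Samples were numbered within a group in accession order. The procedure was tested on simulated data. Members of the set may all be named; full values were given for the 2 smallest and the largest unadjusted p in each of 8 roles and for Mki67, Top2a, Cdk1 and Foxm1, and other lists are represented by up to 3 genes with the smallest p. Full values of Racgap1, and Rbl2 as a further gene of its list, were added after their values were seen. The members, roles and lists were chosen with earlier results of these data known. Marker sums add 2 to the power of the log2 values. Figures were drawn with matplotlib 3.10.9.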

Additional observations from a re-analysis of the deposited data

How the results depend on the processing

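The alternatives averaged a gene's probe sets, filtered at a mean of 5, applied quantile normalization, used trended and robust eBayes, weighted the arrays, dropped each array in turn, dropped both muscle-rich arrays, or took muscle markers as a covariate. Under these 13, 0 members passed limma's adjusted p of 0.05, against 0% to 0.0242% of all genes. The members' median difference stayed between -0.21 and -0.11. Of 42 members 38 to 42 had a lower mean, where 50.1% to 54.1% of all genes did. With single arrays left out, the median was -0.21 to -0.11. The number with a lower mean was 38 to 42, where 51.2% to 52.9% of all genes were lower. The number with all drug arrays below vehicle was 23 to 30, where 13.5% to 15.8% of all genes were so in these smaller comparisons. At an unadjusted p under 0.05, 8 to 18 members were lower, where 3.78% to 4.59% of all genes were. With both muscle-rich arrays left out, 35 members had all drug arrays below vehicle, where 22% of all genes did in that smaller comparison. There 8 members were lower at an unadjusted p under 0.05, against 4.03% of all genes. With the muscle score as covariate 8 were, against 5.19% of all genes. The medians of the 8 roles stayed below 0 in the 13 alternatives. No paired analysis was possible because the labels give the samples no shared replicate numbers. Without detection calls, values near the bottom of the scale cannot be told from background.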
